A study of Mus musculus with 64 samples.

Results

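Viperin (Rsad2) and 5 related antiviral effectors, Cmpk2, Isg15, Usp18, Isg20 and Bst2, were followed through 6 stimulation courses in mouse macrophages. Each gene was represented by the probe set that carried its symbol alone, and each of the 6 genes had 1 such probe set, so that 6 of 18820 measured genes are described. The cells were macrophages grown with the growth factor CSF1 from femur bone marrow of male mice aged 7 to 8 weeks and treated on day 7 of culture. RNA of single culture wells was hybridised to 64 Affymetrix arrays, 1 well per array and 2 wells for each of 32 combinations of strain, treatment and time. In BALB/c macrophages the treatments were interferon-beta (IFN-beta) at 10 U/ml, interferon-gamma (IFN-gamma) at 10 U/ml and bacterial lipopolysaccharide (LPS) at 5 ng/ml. In C57BL/6 macrophages the treatment was LPS at 0.5, 5 or 50 ng/ml. Every course was sampled at 1, 2, 4, 8 and 24 h and set against the untreated cells of its strain at 0 h. All courses of a strain share the same 2 untreated arrays, so that an unusual value at 0 h enters each of them. The labels do not say how many mice supplied the wells or whether marrow was pooled, so p-values measure only the spread between wells, which may be technical.

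Interferons and LPS switch on a large set of antiviral genes in macrophages. IFN-beta acts directly through the type I interferon receptor, IFN-gamma through a receptor of its own, and LPS through Toll-like receptor 4, which makes the cells secrete IFN-beta that acts back on them. Type I interferon signalling ends in a transcription factor complex that binds the interferon-stimulated response element (ISRE), whereas IFN-gamma acts chiefly through the gamma-activated site (GAS). Viperin is an enzyme that converts CTP into a chain terminator of some viral RNA polymerases. Cmpk2 is a mitochondrial nucleotide kinase encoded beside it. Isg15 is a ubiquitin-like protein that is joined to other proteins, and Usp18 is the protease that removes it and also restrains signalling at the type I receptor. Isg20 is an exonuclease that degrades RNA, and Bst2, also called tetherin, is a membrane protein that holds budding virus particles at the cell surface.

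The promoters of Rsad2, Isg15, Bst2 and Cmpk2 are shown because all 6 members rose in each BALB/c course. Those of Isg20 were searched but are not printed. RefSeq start sites on the GRCm38.p6 assembly were found for 5 of the 6 members, all but Usp18. The 250 bases before the start site are given 5′ to 3′ on the strand of the gene, with every match to the ISRE core GAAANNGAAA, searched on both strands, in capitals. Rsad2 lies on chr12:26456453-26456702 (minus strand), Cmpk2 on chr12:26468965-26469214 (plus strand), Isg15 on chr4:156200819-156201068 (minus strand) and Bst2 on chr8:71537473-71537722 (minus strand).
Rsad2: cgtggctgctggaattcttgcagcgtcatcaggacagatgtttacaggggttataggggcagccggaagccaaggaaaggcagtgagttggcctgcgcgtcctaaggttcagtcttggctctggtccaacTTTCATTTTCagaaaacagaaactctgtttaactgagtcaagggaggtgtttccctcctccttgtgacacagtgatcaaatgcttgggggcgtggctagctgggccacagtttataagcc
Isg15: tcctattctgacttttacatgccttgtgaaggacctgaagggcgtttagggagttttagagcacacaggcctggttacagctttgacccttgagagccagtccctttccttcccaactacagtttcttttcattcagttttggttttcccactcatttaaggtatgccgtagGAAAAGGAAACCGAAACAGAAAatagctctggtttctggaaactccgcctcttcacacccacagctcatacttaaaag
Bst2: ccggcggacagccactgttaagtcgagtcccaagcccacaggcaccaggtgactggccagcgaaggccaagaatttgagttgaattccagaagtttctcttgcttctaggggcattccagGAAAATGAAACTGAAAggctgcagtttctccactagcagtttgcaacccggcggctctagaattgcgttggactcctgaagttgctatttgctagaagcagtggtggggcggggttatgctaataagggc
Cmpk2: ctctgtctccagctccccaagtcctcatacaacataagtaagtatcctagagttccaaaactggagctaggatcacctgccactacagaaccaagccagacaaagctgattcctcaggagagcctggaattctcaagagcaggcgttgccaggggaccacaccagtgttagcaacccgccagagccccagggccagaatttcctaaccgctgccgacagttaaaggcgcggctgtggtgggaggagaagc
The window of Rsad2 held 1 match, on the opposite strand, 120 to 111 bases before the start. Isg15 had 3 overlapping matches between 78 and 57 bases before its start, and Bst2 had 2 overlapping matches between 130 and 115 bases before its start. Neither Cmpk2 nor any of the 3 annotated start sites of Isg20 had a match in a window of 300 bases that runs 50 bases past the start. The same core was present in 1131 of 32851 RefSeq promoter windows of that length, or 3.44%. The GAS core TTCNNNGAA was present in 8.3% of those windows, among them 1 start site of Isg20 (73 to 65 bases before it) and Bst2 (136 to 128 bases before it, overlapping the ISRE match). These matches describe letters in the window only.

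Levels are log2 intensities of a probe set and are compared between groups only within that probe set. Whether the Isg15 probe set also matches a copy of the gene elsewhere was not tested, and RefSeq places 1 long non-coding RNA gene over part of Usp18 and another over an end of Isg15, which the probe sets may not tell apart from them. A change was called where the F-test over the 5 times of a course passed a Benjamini-Hochberg adjusted p of 0.05 over all 18820 genes and the log2 difference reached 1 (2-fold) at 1 or more times. Each time was also tested alone with the same thresholds. Errors after ± are standard errors of the fit across all arrays (n = 2 wells per group) unless stated otherwise.

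All 9 measured macrophage markers were bright, with means between 9.09 (Mertk) and 13.22 (Lyz2), while the markers of granulocytes averaged between 4.08 and 5.37, those of conventional dendritic cells between 3.59 and 4.95, those of lymphoid cells between 2.91 and 5.65 and those of fibroblasts between 4.12 and 6.03, and the 1 measured erythroid marker 4.45. Of 4 markers of plasmacytoid dendritic cells, 3 averaged between 3.90 and 5.07 and Tcf4 averaged 9.77, above Mertk. These are averages over all 32 groups, and some markers were higher in part of them. Ngp lay between 5.74 and 7.2 in C57BL/6 cells from 0 to 8 h, and between 3.83 and 4.45 in BALB/c cells. Ccr9 lay between 4.45 and 5.79 at 4, 8 and 24 h of LPS in both strains, and between 3.42 and 4.06 in all other groups. The highest group mean was 7.39 for Clec9a (conventional dendritic), 7.2 for Ngp (granulocyte), 6.94 for Cd4 (lymphoid) and 5.79 for Ccr9 (plasmacytoid dendritic). Their part in the results was not tested. Replicate wells correlated at 0.992 to 0.998 over all genes. In 5 pairs of wells the replicates differed by over 1.5 on the log2 scale in 10 or more genes: C57BL/6 cells at 1 h of LPS at 50 ng/ml (80 genes), at 24 h of LPS at 5 ng/ml (30 genes) and at 1 h of LPS at 0.5 ng/ml (25 genes), and BALB/c cells at 4 h (14 genes) and 2 h (12 genes) of IFN-gamma. One array of each pair was taken as standing apart, by a rule that was settled after its outcome was seen, and results that rest on these 5 arrays are given with and without them. In C57BL/6 cells at 1 h of LPS at 50 ng/ml, 5 of the 6 members differed between the wells by over 1.5, and Rsad2 differed by 2.63.

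IFN-beta raised all 6 members in BALB/c macrophages, against 7.92% of all genes called in either direction and 4.05% called upward. The smallest of the largest changes was that of Bst2 (4-fold), and the largest was that of Rsad2 (23.4-fold). RNA came from whole wells, so that a larger share of expressing cells and more RNA per cell cannot be told apart. Rsad2 had levels of 8.63 and 8.76 at 0 h, 12.32 and 12.55 at 1 h, 12.83 and 12.69 at 2 h, 13.25 and 13.25 at 4 h, 12.69 and 12.73 at 8 h, 10.33 and 10.88 at 24 h. Every treated well lay above both untreated wells, most of the rise was present by 1 h, and the mean at 4 h was the highest of all 32 groups. The difference from 0 h was 3.74 ± 0.41 (adjusted p = 3.2e-08) at 1 h and 4.55 ± 0.41 (adjusted p = 1.6e-11) at 4 h. Cmpk2, its neighbour on chromosome 12, had 8.89 and 9.05 at 0 h, 11.76 and 12.04 at 1 h, 12.22 and 12.20 at 2 h, 13.08 and 12.89 at 4 h, 12.31 and 12.33 at 8 h, 10.48 and 10.73 at 24 h. Its difference from 0 h was largest at 4 h, at 4.01 ± 0.33 (adjusted p = 1.7e-12), or 16.1-fold.

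Isg15 had its largest change later than Rsad2, and Usp18 at the same time. The levels of Isg15 were 4.56 and 4.31 at 0 h, 5.74 and 6.73 at 1 h, 6.79 and 6.87 at 2 h, 8.23 and 8.45 at 4 h, 8.91 and 8.86 at 8 h, 6.53 and 6.66 at 24 h. It climbed through 8 h, where it stood 4.45 ± 0.36 (adjusted p = 1.9e-12) above 0 h, or 21.9-fold. Usp18, the protease that reverses its conjugation, had 10.14 and 10.16 at 0 h, 11.63 and 11.98 at 1 h, 12.25 and 12.12 at 2 h, 13.00 and 12.95 at 4 h, 12.47 and 12.62 at 8 h, 11.85 and 12.09 at 24 h. That gene was already bright in untreated cells and reached 2.82 ± 0.27 (adjusted p = 6.8e-11) above them at 4 h, or 7.07-fold. Isg20 had 8.07 and 7.87 at 0 h, 9.35 and 10.08 at 1 h, 10.64 and 10.52 at 2 h, 11.74 and 11.65 at 4 h, 11.96 and 11.93 at 8 h, 10.24 and 10.41 at 24 h, and its rise was largest at 8 h, at 3.97 ± 0.41 (adjusted p = 5.5e-10) or 15.7-fold. Bst2 had 8.38 and 8.42 at 0 h, 8.66 and 9.11 at 1 h, 8.95 and 9.28 at 2 h, 9.65 and 9.41 at 4 h, 10.39 and 10.41 at 8 h, 10.13 and 10.02 at 24 h. The tetherin gene did not reach the minimum change at 1 h (0.48 ± 0.18, adjusted p = 0.42) or 2 h (0.71 ± 0.18, adjusted p = 0.01), and stood 2.00 ± 0.18 (adjusted p = 1.3e-11) above 0 h at 8 h.

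The members thus differed in timing under IFN-beta. At 1 h Rsad2 had made 82.1% of its largest log2 change, Cmpk2 72.9%, Usp18 58.5%, Isg20 43.8%, Isg15 40.5% and Bst2 24.2%. These shares are descriptions of group means and were not tested against each other. Tested alone, 5 members were called at 1 h, where 0.542% of all genes were called, and all 6 were called at 4, 8 and 24 h, where 5.28%, 3.89% and 1.83% of all genes were. At 24 h, set against 8 h of IFN-beta, 4 members were lower (2.32% of all genes called, 1.51% downward), with differences of -2.29 ± 0.36 (adjusted p = 8.5e-06) for Isg15, -2.11 ± 0.41 (adjusted p = 0.00019) for Rsad2, -1.72 ± 0.33 (adjusted p = 0.00018) for Cmpk2 and -1.62 ± 0.41 (adjusted p = 0.0035) for Isg20. Usp18 and Bst2 did not pass that test, at -0.58 ± 0.27 (adjusted p = 0.17) and -0.33 ± 0.18 (adjusted p = 0.25). In the other 5 courses no member was called between 24 h and 8 h at the minimum change. Of all genes, 0.792% were called there under IFN-gamma, 6.06% under LPS in BALB/c cells, and 3.10%, 5.86% and 6.21% with 0.5, 5 and 50 ng/ml LPS in C57BL/6 cells. Bst2 differed in these courses by +0.53 to +0.92. Its 0.92 ± 0.18 (adjusted p = 0.00013) under LPS at 0.5 ng/ml in C57BL/6 cells was the highest of these. Both wells of IFN-beta at 4 h lay in the smaller of 2 sets into which the arrays fell along the first component of the replicate differences, and with that set as a covariate the changes at 4 h were 4.55 for Rsad2, 4.04 for Cmpk2 and 2.79 for Usp18.

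**Figure D1:**
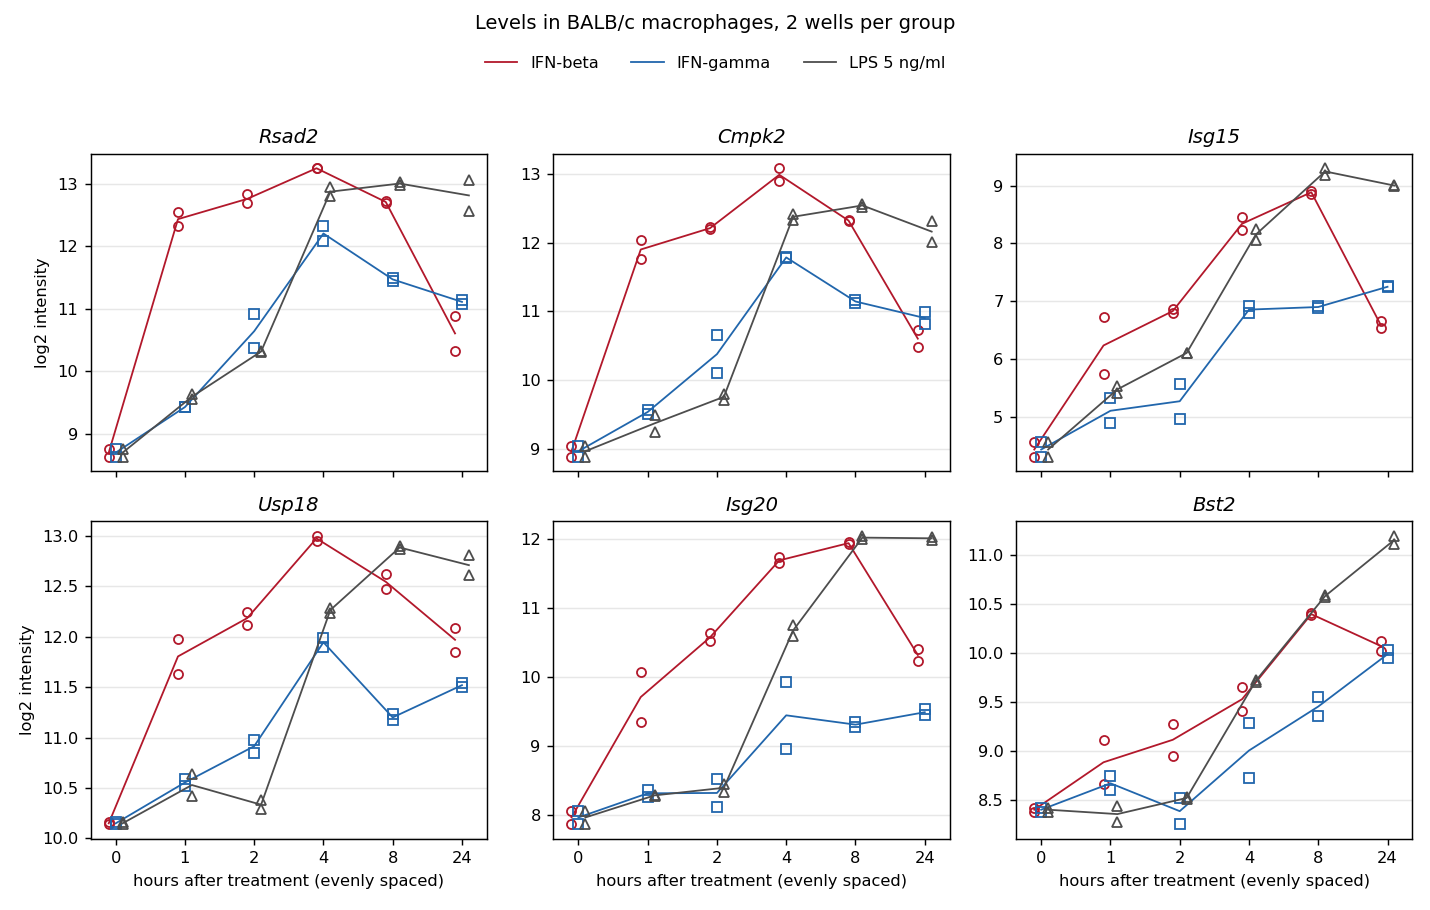
Levels of the 6 genes in BALB/c macrophages, as log2 intensity on the vertical axis, at 0, 1, 2, 4, 8 and 24 h, evenly spaced on the horizontal axis. Open symbols are single wells and lines join the group means of IFN-beta, IFN-gamma and LPS at 5 ng/ml. Rsad2 reaches 12.32 and 12.55 at 1 h of IFN-beta, where IFN-gamma stands at 9.43 and 9.42 and LPS at 9.55 and 9.63.

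IFN-gamma raised all 6 members too, each with a smaller largest change than under IFN-beta (5.37% of all genes called, 3.10% upward). Rsad2 had 8.63 and 8.76 at 0 h, 9.43 and 9.42 at 1 h, 10.91 and 10.37 at 2 h, 12.09 and 12.32 at 4 h, 11.49 and 11.45 at 8 h, 11.08 and 11.14 at 24 h. Both wells at 1 h were above the untreated wells, but the difference of 0.73 ± 0.41 (adjusted p = 0.76) did not pass the threshold on its own; at 4 h it was 3.51 ± 0.41 (adjusted p = 2.2e-08). Cmpk2 had 8.89 and 9.05 at 0 h, 9.57 and 9.51 at 1 h, 10.66 and 10.10 at 2 h, 11.78 and 11.79 at 4 h, 11.17 and 11.12 at 8 h, 10.99 and 10.82 at 24 h and also peaked at 4 h, 2.81 ± 0.33 (adjusted p = 2.8e-08) above 0 h. Isg15 had 4.56 and 4.31 at 0 h, 5.32 and 4.89 at 1 h, 5.57 and 4.97 at 2 h, 6.80 and 6.91 at 4 h, 6.89 and 6.91 at 8 h, 7.24 and 7.26 at 24 h. Unlike viperin it was highest at 24 h, at 2.82 ± 0.36 (adjusted p = 1.4e-07) above 0 h, although its 4, 8 and 24 h wells spanned only 6.80 to 7.26.

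Usp18 had 10.14 and 10.16 at 0 h, 10.59 and 10.52 at 1 h, 10.98 and 10.85 at 2 h, 11.90 and 11.99 at 4 h, 11.17 and 11.23 at 8 h, 11.54 and 11.50 at 24 h, with its largest difference at 4 h (1.79 ± 0.27, adjusted p = 3.5e-06). Isg20 had 8.07 and 7.87 at 0 h, 8.37 and 8.27 at 1 h, 8.53 and 8.12 at 2 h, 8.96 and 9.94 at 4 h, 9.28 and 9.35 at 8 h, 9.54 and 9.45 at 24 h. The wells of Isg20 at 4 h differed by nearly 1 unit, and the difference from 0 h of 1.48 ± 0.41 (adjusted p = 0.01) there was 0.99 ± 0.18 (adjusted p = 0.00017) without the array that stood apart, and no longer called; at 24 h it was 1.52 ± 0.41 (adjusted p = 0.0065). Bst2 had 8.38 and 8.42 at 0 h, 8.74 and 8.60 at 1 h, 8.52 and 8.25 at 2 h, 8.72 and 9.29 at 4 h, 9.36 and 9.55 at 8 h, 9.95 and 10.03 at 24 h. Its 2 h wells straddled the untreated wells, and it stood above them by 1.06 ± 0.18 (adjusted p = 1.7e-05) at 8 h and 1.59 ± 0.18 (adjusted p = 5e-09) at 24 h.

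LPS at 5 ng/ml also raised all 6 members in BALB/c cells (17.2% of all genes called, 7.44% upward), with only Rsad2 and Isg15 called before 4 h. Rsad2 had 8.63 and 8.76 at 0 h, 9.55 and 9.63 at 1 h, 10.30 and 10.33 at 2 h, 12.80 and 12.95 at 4 h, 13.03 and 12.98 at 8 h, 12.57 and 13.06 at 24 h. Its 1 h difference of 0.89 ± 0.41 (adjusted p = 0.25) was below the minimum, the 2 h difference was 1.62 ± 0.41 (adjusted p = 0.0075), and the 8 h difference was 4.31 ± 0.41 (adjusted p = 2e-11). Cmpk2 had 8.89 and 9.05 at 0 h, 9.25 and 9.50 at 1 h, 9.80 and 9.72 at 2 h, 12.33 and 12.42 at 4 h, 12.52 and 12.56 at 8 h, 12.01 and 12.31 at 24 h. Its difference from 0 h was 0.79 ± 0.33 (adjusted p = 0.19) at 2 h, not called, and 3.40 ± 0.33 (adjusted p = 9.5e-11) at 4 h. Isg15 had 4.56 and 4.31 at 0 h, 5.42 and 5.53 at 1 h, 6.11 and 6.10 at 2 h, 8.06 and 8.25 at 4 h, 9.30 and 9.19 at 8 h, 9.01 and 8.99 at 24 h. Its difference of 4.81 ± 0.36 (adjusted p = 3.2e-14) at 8 h, or 28.1-fold, was the largest that Isg15 showed in any course.

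Usp18 had 10.14 and 10.16 at 0 h, 10.42 and 10.64 at 1 h, 10.29 and 10.38 at 2 h, 12.24 and 12.29 at 4 h, 12.87 and 12.90 at 8 h, 12.61 and 12.81 at 24 h, and was first called at 4 h (2.12 ± 0.27, adjusted p = 4.6e-08). Isg20 had 8.07 and 7.87 at 0 h, 8.28 and 8.30 at 1 h, 8.34 and 8.46 at 2 h, 10.60 and 10.76 at 4 h, 12.00 and 12.05 at 8 h, 11.99 and 12.04 at 24 h. The exonuclease gene was not called at 1 or 2 h, stood 4.05 ± 0.41 (adjusted p = 7.2e-11) above 0 h at 8 h and kept 4.04 ± 0.41 (adjusted p = 8.9e-11) at 24 h. Bst2 had 8.38 and 8.42 at 0 h, 8.44 and 8.27 at 1 h, 8.51 and 8.53 at 2 h, 9.71 and 9.73 at 4 h, 10.57 and 10.60 at 8 h, 11.12 and 11.20 at 24 h. It overlapped the untreated wells at 1 h and was highest at 24 h, at 2.76 ± 0.18 (adjusted p = 3.2e-16). At 24 h of IFN-beta Cmpk2 stood at 40.6% of its largest log2 change, Rsad2 at 42.0%, Isg15 at 48.6%, Isg20 at 59.1%, Usp18 at 64.4% and Bst2 at 83.6%, whereas at 24 h of LPS the members stood at 89.5% to 100%. Over the 6 members, the median log2 difference at 1, 2, 4, 8 and 24 h was 1.77, 2.50, 3.82, 3.66 and 1.86 under IFN-beta, 0.49, 0.80, 2.11, 1.76 and 1.76 under IFN-gamma and 0.39, 0.61, 3.06, 3.81 and 3.62 under LPS. The median over all genes under IFN-beta lay between -0.085 and -0.016.

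Of the 5 fibroblast markers, Pdgfrb and Dcn moved with LPS. In BALB/c cells Pdgfrb had group means of 5.92, 6.00, 6.06, 8.39, 9.17 and 7.52 at 0, 1, 2, 4, 8 and 24 h of LPS, and Dcn had 3.63, 3.53, 3.83, 4.56, 6.07 and 7.75. The other 3, the collagen genes Col1a1, Col1a2 and Col3a1, lay between 4.42 and 5.47 in all 32 groups. The summed log2 level of the 5 markers ran from 23.85 to 29.72 in the LPS groups of BALB/c cells, against 24.47 at 0 h, and from 21.92 to 28.44 in the LPS groups of C57BL/6 cells, against 23.12 at 0 h. Their part in the results on LPS was not tested.

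The BALB/c courses were then set against each other at matched times, treated wells against treated wells. The interferons were used at the same number of units per ml, which is a measure of activity and not of mass. IFN-beta gave higher levels than IFN-gamma in 5 of the 6 members (3.96% of all genes called, 2.06% upward). Rsad2 differed most at 1 h, at 3.01 ± 0.41 (adjusted p = 9.2e-06), and Isg20 at 8 h, at 2.63 ± 0.41 (adjusted p = 9e-06). Isg15 differed by 1.99 ± 0.36 (adjusted p = 0.00012), Usp18 by 1.35 ± 0.27 (adjusted p = 0.00045) and Cmpk2 by 1.18 ± 0.33 (adjusted p = 0.017) at 8 h. Cmpk2 differed more at 1 h, with group means of 11.90 under IFN-beta and 9.54 under IFN-gamma. Bst2 passed the F-test (adjusted p = 2.1e-05) but its largest difference, 0.94 ± 0.18 (adjusted p = 0.00017) at 8 h, stayed under the minimum. By 24 h none of the 6 was called (1.66% of all genes were), and Rsad2 (-0.50 ± 0.41, adjusted p = 0.53), Isg15 (-0.65 ± 0.36, adjusted p = 0.3) and Cmpk2 (-0.31 ± 0.33, adjusted p = 0.67) had differences below 0. The group means under IFN-beta and IFN-gamma were then 10.32 and 9.50 for Isg20, 11.97 and 11.52 for Usp18, and 10.07 and 9.99 for Bst2.

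IFN-beta against LPS changed sign with time (14.3% of all genes called). At 1 h 4 members were higher under IFN-beta, where 0.484% of all genes were, among them Rsad2 by 2.84 ± 0.41 (adjusted p = 2.8e-06) and Cmpk2 by 2.52 ± 0.33 (adjusted p = 4.6e-07). Isg15 and Bst2 were the members not called, Isg15 with 0.76 ± 0.36 (adjusted p = 0.34) at 1 h and 0.73 ± 0.36 (adjusted p = 0.29) at 2 h. At 4 and 8 h no member was called with all arrays, while 5.47% and 7.24% of all genes were. Without the 5 arrays that stood apart, whose removal lowers the standard error, Isg20 was called at 4 h (1.01 ± 0.15, adjusted p = 1.8e-06). At 8 h the differences lay between -0.36 (Isg15) and -0.079 (Isg20). At 24 h 5 members were lower under IFN-beta (3.86% of all genes lower), with differences of -2.40 ± 0.36 (adjusted p = 9.7e-07) for Isg15, -2.21 ± 0.41 (adjusted p = 3.6e-05) for Rsad2, -1.69 ± 0.41 (adjusted p = 0.0011) for Isg20, -1.56 ± 0.33 (adjusted p = 0.00026) for Cmpk2 and -1.09 ± 0.18 (adjusted p = 3.6e-06) for Bst2. Usp18 was not called at that time, at -0.74 ± 0.27 (adjusted p = 0.036).

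The called differences between IFN-gamma and LPS ran one way. All 6 members were called lower under IFN-gamma (13.6% of all genes called, 6.09% downward). Tested alone, Isg15 (-1.30 ± 0.36, adjusted p = 0.0084) and Isg20 (-1.24 ± 0.41, adjusted p = 0.03) were lower at 4 h. Every member was lower at 8 and 24 h, where 3.62% and 3.54% of all genes were. None was called at 1 or 2 h with all arrays, and the shares of all genes at those times are not given here. At 2 h the means under IFN-gamma and LPS were 10.91 and 10.34 for Usp18, 10.38 and 9.76 for Cmpk2, and 10.64 and 10.31 for Rsad2. They were 5.27 and 6.11 for Isg15, 8.33 and 8.4 for Isg20, and 8.39 and 8.52 for Bst2. The 2 h and 4 h groups of IFN-gamma each hold 1 array that stood apart, and without the 5 such arrays Isg15 was also called at 2 h (-1.14 ± 0.21, adjusted p = 0.00031) and Bst2 at 4 h (-1.0 ± 0.18, adjusted p = 8.5e-05). The differences at 8 h ran from -2.71 ± 0.41 (adjusted p = 9.5e-07) for Isg20 to -1.13 ± 0.18 (adjusted p = 2e-06) for Bst2. At 24 h the largest difference was again that of Isg20, -2.52 ± 0.41 (adjusted p = 3.7e-06), and the smallest that of Bst2, -1.17 ± 0.18 (adjusted p = 1e-06).

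**Figure D2:**
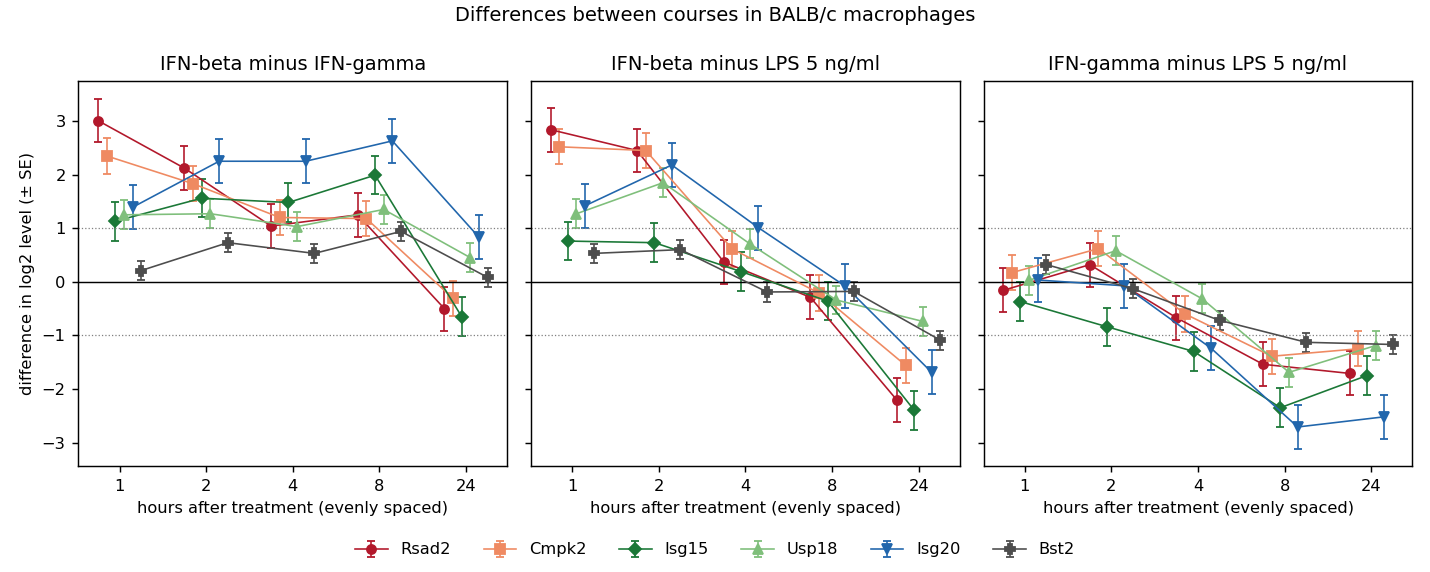
Differences between the BALB/c courses at matched times, in log2 units on the vertical axis against hours on the horizontal axis, as the difference ± its standard error for each gene, with dotted lines at the minimum change of 1. The panels show IFN-beta minus IFN-gamma, IFN-beta minus LPS at 5 ng/ml and IFN-gamma minus LPS at 5 ng/ml. For Rsad2, IFN-beta minus LPS is 2.84 at 1 h and -2.21 at 24 h.

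In C57BL/6 macrophages the untreated cells already had high levels of these genes, and the early LPS samples had low ones. Rsad2 had 12.29 and 12.15 at 0 h, 10.26 and 8.55 at 1 h, 8.41 and 8.93 at 2 h, 11.21 and 11.15 at 4 h, 12.54 and 12.76 at 8 h, 12.37 and 12.51 at 24 h under LPS at 0.5 ng/ml. With 5 ng/ml, the levels of Rsad2 were 12.29 and 12.15 at 0 h, 7.67 and 8.18 at 1 h, 8.61 and 9.43 at 2 h, 12.48 and 12.33 at 4 h, 13.14 and 13.14 at 8 h, 12.71 and 12.70 at 24 h. At 50 ng/ml Rsad2 had 12.29 and 12.15 at 0 h, 11.65 and 9.02 at 1 h, 9.65 and 9.69 at 2 h, 12.71 and 13.07 at 4 h, 12.97 and 13.25 at 8 h, 12.82 and 12.82 at 24 h. The untreated wells of Rsad2 were thus above every 1 and 2 h well at all doses. The difference from 0 h of Rsad2 at 2 h was -3.55 ± 0.41 (adjusted p = 8.2e-08) with 0.5 ng/ml, -3.20 ± 0.41 (adjusted p = 3.3e-07) with 5 ng/ml and -2.55 ± 0.41 (adjusted p = 2.2e-05) with 50 ng/ml, and the largest fall, -4.29 ± 0.41 (adjusted p = 8.7e-10) or 19.6-fold, was at 1 h of 5 ng/ml. By 8 h it stood within 1 log2 unit of the untreated cells in the 3 courses, at 0.43 ± 0.41 (adjusted p = 0.57), 0.92 ± 0.41 (adjusted p = 0.089) and 0.89 ± 0.41 (adjusted p = 0.099) with 0.5, 5 and 50 ng/ml.

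Isg15 fell early in the same way and then passed its 0 h level. With 0.5 ng/ml Isg15 had 6.66 and 6.68 at 0 h, 5.32 and 4.35 at 1 h, 3.85 and 4.32 at 2 h, 5.97 and 5.95 at 4 h, 8.35 and 8.28 at 8 h, 8.67 and 8.64 at 24 h. The levels of Isg15 with 5 ng/ml were 6.66 and 6.68 at 0 h, 4.08 and 4.38 at 1 h, 5.09 and 5.17 at 2 h, 7.47 and 7.42 at 4 h, 9.06 and 9.14 at 8 h, 8.99 and 8.93 at 24 h. With 50 ng/ml they were 6.66 and 6.68 at 0 h, 7.20 and 4.66 at 1 h, 5.31 and 5.34 at 2 h, 7.64 and 7.77 at 4 h, 9.22 and 9.38 at 8 h, 9.24 and 9.13 at 24 h. At each dose both 2 h wells of Isg15 lay below the untreated wells, and every 8 and 24 h well lay above them. At 8 h Isg15 stood above 0 h by 1.65 ± 0.36 (adjusted p = 0.00058), 2.43 ± 0.36 (adjusted p = 6.5e-07) and 2.63 ± 0.36 (adjusted p = 1.3e-07) with 0.5, 5 and 50 ng/ml.

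Isg20 had 9.92 and 9.89 at 0 h, 9.57 and 7.73 at 1 h, 7.59 and 8.01 at 2 h, 8.43 and 8.56 at 4 h, 10.89 and 10.99 at 8 h, 11.91 and 11.79 at 24 h with 0.5 ng/ml. With 5 ng/ml Isg20 had 9.92 and 9.89 at 0 h, 7.41 and 7.62 at 1 h, 7.49 and 7.69 at 2 h, 9.60 and 9.29 at 4 h, 11.71 and 11.84 at 8 h, 12.12 and 12.02 at 24 h. At 50 ng/ml the levels of Isg20 were 9.92 and 9.89 at 0 h, 10.70 and 8.18 at 1 h, 7.68 and 7.98 at 2 h, 10.23 and 10.26 at 4 h, 11.97 and 12.05 at 8 h, 12.16 and 12.20 at 24 h. The exonuclease gene was below the untreated wells at 2 h at each dose, with differences of -2.11 ± 0.41 (adjusted p = 0.00065), -2.32 ± 0.41 (adjusted p = 9.3e-05) and -2.07 ± 0.41 (adjusted p = 0.00044) with 0.5, 5 and 50 ng/ml, and above them at 24 h, with differences of 1.95 ± 0.41 (adjusted p = 0.00021), 2.16 ± 0.41 (adjusted p = 4.2e-05) and 2.27 ± 0.41 (adjusted p = 1.8e-05). Cmpk2 fell early like its neighbour: its wells held 11.62 and 11.42 at 0 h, 7.54 and 7.65 at 1 h, 11.71 and 11.41 at 4 h, 12.51 and 12.58 at 8 h and 12.05 and 11.99 at 24 h of 5 ng/ml. Usp18 held 11.38 and 11.17 at 0 h, 8.60 and 8.75 at 1 h, 11.37 and 11.15 at 4 h, 12.75 and 12.74 at 8 h and 12.46 and 12.34 at 24 h of 5 ng/ml. Both genes fell at 2 h in all 3 courses, with differences of -3.44 (0.5 ng/ml) to -3.09 (50 ng/ml) for Cmpk2 and -2.40 (0.5 ng/ml) to -2.30 (50 ng/ml) for Usp18. Tested alone at 8 h, Cmpk2 and Usp18 were called above 0 h with 5 and 50 ng/ml, where Rsad2 was not.

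Bst2 was the member with no called fall. Its levels with 0.5 ng/ml were 9.04 and 9.33 at 0 h, 8.94 and 8.80 at 1 h, 8.73 and 8.87 at 2 h, 9.19 and 9.28 at 4 h, 10.41 and 10.23 at 8 h, 11.05 and 11.42 at 24 h. With 5 ng/ml Bst2 had 9.04 and 9.33 at 0 h, 8.69 and 8.87 at 1 h, 8.60 and 8.97 at 2 h, 9.55 and 9.36 at 4 h, 10.51 and 10.60 at 8 h, 11.27 and 11.13 at 24 h. With 50 ng/ml Bst2 had 9.04 and 9.33 at 0 h, 9.77 and 9.12 at 1 h, 8.94 and 9.05 at 2 h, 9.40 and 9.85 at 4 h, 10.63 and 10.69 at 8 h, 11.40 and 11.35 at 24 h. It was not called at 1, 2 or 4 h of any dose, its 1 and 2 h differences lay between -0.40 and 0.26, and at 24 h it stood above 0 h by 2.05 ± 0.18 (adjusted p = 3e-12), 2.01 ± 0.18 (adjusted p = 3.6e-12) and 2.19 ± 0.18 (adjusted p = 3.1e-13) with 0.5, 5 and 50 ng/ml. Counted over a whole course by the sign of the largest change, 1 member rose and 5 fell with 0.5 ng/ml (9.11% of all genes called), 1 rose and 5 fell with 5 ng/ml (14.3% called), and 3 rose and 3 fell with 50 ng/ml (15.0% called). Isg15 with 5 ng/ml had -2.44 at 1 h and 2.43 at 8 h, with a standard error of 0.36, so that its place in that count is not settled. The place of Isg20 is not settled at any dose. Its change of the other sign was -92.2% (24 h), -90.5% (24 h) and -91.1% (2 h) of its largest log2 change with 0.5, 5 and 50 ng/ml. Setting the same courses against their 1 h wells in place of 0 h gave 6 members up and 0 down at each dose, beside 10.4%, 14.9% and 14.6% of all genes called with 0.5, 5 and 50 ng/ml. Measured in this way at 5 ng/ml, Rsad2 had risen by 5.22 at 8 h, Cmpk2 by 4.95, Isg15 by 4.87 and Usp18 by 4.07 at 8 h, and Isg20 by 4.55 and Bst2 by 2.42 at 24 h. The direction of 5 members in 1 or more C57BL/6 courses therefore depends on whether 0 h or 1 h is the starting point. Only 2 wells stand behind the 0 h level, and what set them above the early LPS wells was not tested.

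**Figure D3:**
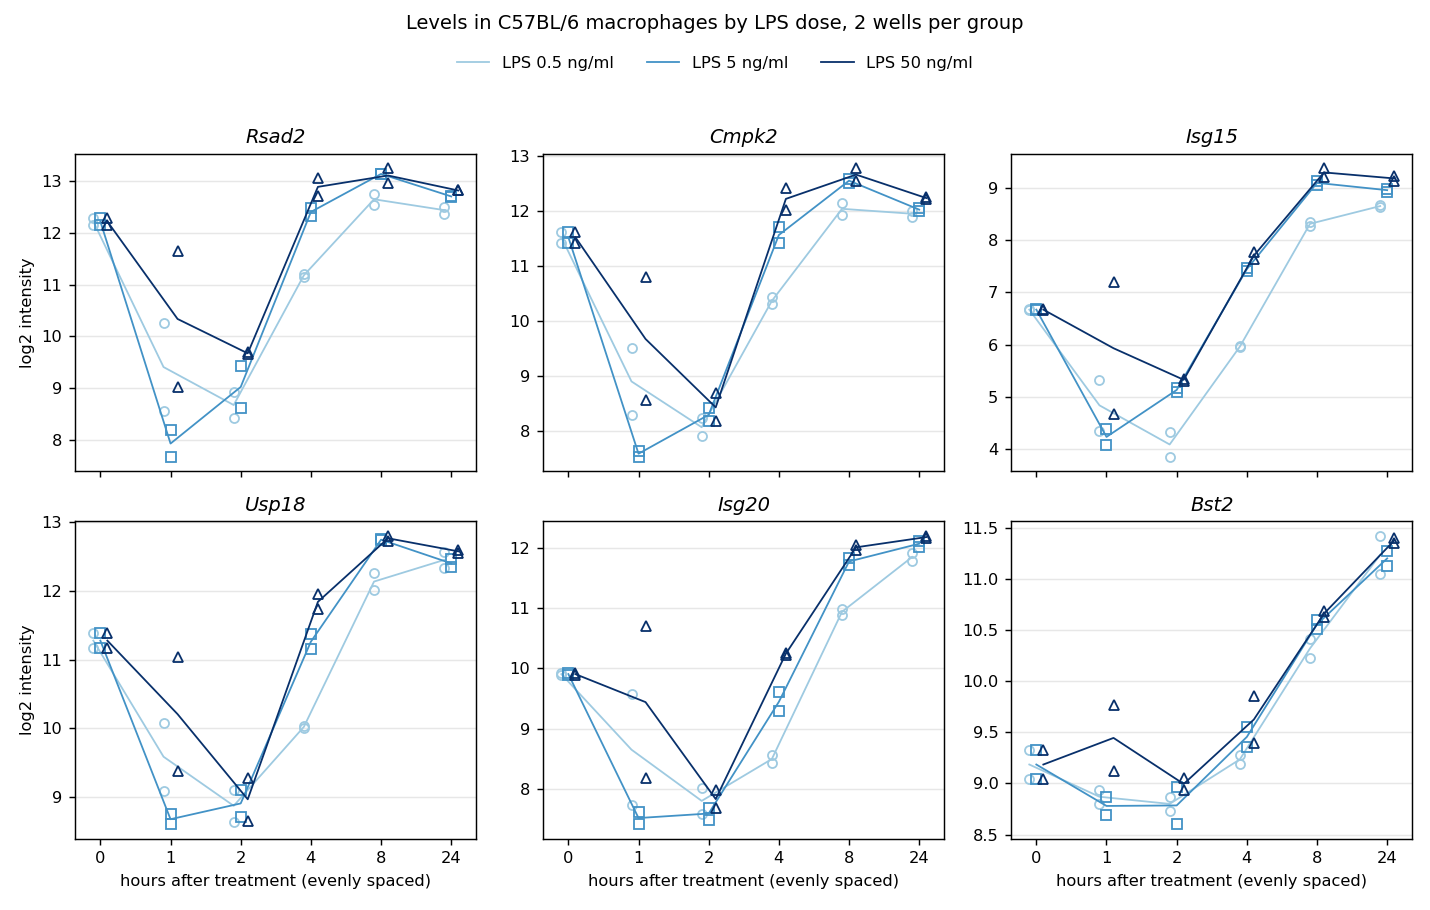
Levels of the 6 genes in C57BL/6 macrophages, as log2 intensity on the vertical axis, at 0, 1, 2, 4, 8 and 24 h of LPS at 0.5, 5 and 50 ng/ml, evenly spaced on the horizontal axis. Open symbols are single wells and lines join the group means. Untreated wells of Rsad2 stand at 12.29 and 12.15, above the 1 and 2 h wells of each dose, and the 2 wells at 1 h of 50 ng/ml lie far apart, at 11.65 and 9.02.

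The doses were compared at matched times between treated wells, so that the 0 h arrays do not enter. LPS at 50 ng/ml gave higher levels than 0.5 ng/ml in 5 of the 6 members (3.72% of all genes called, 2.01% upward; 0.951% called at 4 h alone), and at 4 h the differences were 1.85 ± 0.33 (adjusted p = 0.00021) for Cmpk2, 1.82 ± 0.27 (adjusted p = 9.5e-06) for Usp18, 1.76 ± 0.41 (adjusted p = 0.0044) for Isg20, 1.74 ± 0.36 (adjusted p = 0.0014) for Isg15 and 1.71 ± 0.41 (adjusted p = 0.0063) for Rsad2. Bst2 differed by 0.39 ± 0.18 (adjusted p = 0.25) and was not called. With all arrays no member was called between these doses at 1, 2, 8 or 24 h tested alone. Shares of all genes at these times are not given here, so that this absence of calls is not set against other genes. Without the 5 arrays that stood apart, Isg15 was called at 2 h (1.25 ± 0.18, adjusted p = 1.8e-05) and Isg20 at 8 h (1.07 ± 0.15, adjusted p = 1.4e-06). The 4 h wells were ordered by dose without overlap in Rsad2, with 11.21 and 11.15 at 0.5 ng/ml, 12.48 and 12.33 at 5 ng/ml and 12.71 and 13.07 at 50 ng/ml. Isg20 at 4 h was ordered in the same way, with 8.43 and 8.56, 9.60 and 9.29, and 10.23 and 10.26 at 0.5, 5 and 50 ng/ml. Without these 5 arrays the 4 h differences were the same in size, since none of those arrays was from 4 h of these doses, and 5 members were again called (4.02% of all genes called). Fitted to only the arrays compared, Rsad2 (adjusted p = 0.14), Isg20 (adjusted p = 0.12) and Isg15 (adjusted p = 0.073) were not called at 4 h. Rsad2 was also not called there without the second well of 50 ng/ml (difference 1.53), or without the first (1.74) or second (1.69) well of 0.5 ng/ml. Isg20 was not called without the first well of 0.5 ng/ml (1.69).

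Between 5 and 0.5 ng/ml, 2 members were called higher and 2 lower by their largest difference (2.16% of all genes called). At 4 h Isg15 differed by 1.48 ± 0.36 (adjusted p = 0.011), Usp18 by 1.24 ± 0.27 (adjusted p = 0.0037) and Cmpk2 by 1.20 ± 0.33 (adjusted p = 0.032). The downward calls came from 1 h, where the differences were -1.48 ± 0.41 (adjusted p = 0.042) for Rsad2 and -1.31 ± 0.33 (adjusted p = 0.024) for Cmpk2. At that time Rsad2 had 7.67 and 8.18 in the wells of 5 ng/ml, against 10.26 and 8.55 in the wells of 0.5 ng/ml, which were unlike each other. Without the 5 arrays the 1 h differences were -0.63 ± 0.24 (adjusted p = 0.13) for Rsad2 and -0.70 ± 0.19 (adjusted p = 0.037) for Cmpk2, and 4 members were called higher and none lower (2.76% of all genes called). Rsad2 was then also called at 4 h (1.23 ± 0.19, adjusted p = 7.1e-05) and Isg15 at 2 h (1.05 ± 0.18, adjusted p = 0.00052).

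Between 50 and 5 ng/ml, 3 members were called higher (0.228% of all genes called), all through 1 h. Rsad2 differed there by 2.41 ± 0.41 (adjusted p = 0.0035), Cmpk2 by 2.08 ± 0.33 (adjusted p = 0.0018) and Usp18 by 1.53 ± 0.27 (adjusted p = 0.0048). Isg20 (1.93 ± 0.41, adjusted p = 0.021) and Isg15 (1.70 ± 0.36, adjusted p = 0.022) passed at 1 h tested alone (0.143% of all genes called) but not over the whole course. No member was called over the course without the first well at 1 h of 5 ng/ml or without the first of the 2 wells at 1 h of 50 ng/ml, which had 11.65 for Rsad2 while the second had 9.02. The wells of 5 ng/ml had 7.67 and 8.18. Without the 5 arrays the differences were 1.09 ± 0.24 (adjusted p = 0.099) for Rsad2, 0.96 ± 0.19 (adjusted p = 0.047) for Cmpk2 and 0.69 ± 0.19 (adjusted p = 0.35) for Usp18. Rsad2 alone was then called over the whole course (F-test adjusted p = 0.012, with 0.239% of all genes called). At 2, 4, 8 and 24 h no member was called between 50 and 5 ng/ml, with or without the 5 arrays. Few genes of any kind were called between these doses, 0.228% with all arrays and 0.239% without the 5, over the whole course.

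**Figure D4:**
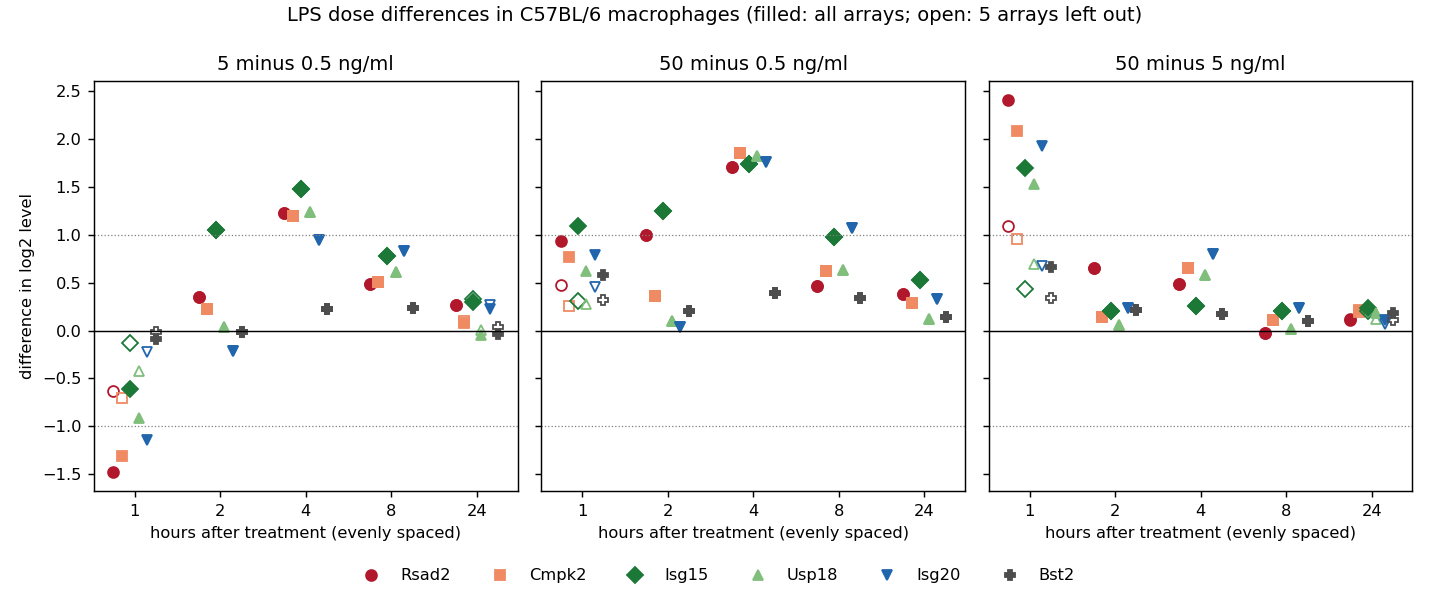
Differences between LPS doses in C57BL/6 macrophages at matched times, in log2 units on the vertical axis against hours on the horizontal axis, for 5 minus 0.5, 50 minus 0.5 and 50 minus 5 ng/ml. Filled symbols use all arrays and open symbols leave out the 5 arrays that stood apart. At 1 h, 50 minus 5 ng/ml is 2.41 for Rsad2 with all arrays and 1.09 without the 5, while at 4 h the values with and without them coincide.

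The strains were compared at 0 h and at 5 ng/ml LPS, the dose that both received. Untreated BALB/c cells had lower levels than untreated C57BL/6 cells in 5 of the 6 members (2.36% of all genes called, 1.26% downward). Rsad2 had 8.63 and 8.76 in BALB/c wells, against 12.29 and 12.15 in C57BL/6 wells, a difference of -3.52 ± 0.41 (adjusted p = 2.5e-08) or 11.5-fold. The differences were -2.55 ± 0.33 (adjusted p = 3e-07) for Cmpk2, -2.24 ± 0.36 (adjusted p = 1.5e-05) for Isg15, -1.93 ± 0.41 (adjusted p = 0.00074) for Isg20 and -1.12 ± 0.27 (adjusted p = 0.0035) for Usp18. Bst2, with 8.38 and 8.42 in BALB/c wells against 9.04 and 9.33 in C57BL/6 wells, had a difference of -0.79 ± 0.18 (adjusted p = 0.0015), under the minimum change. The summed log2 level of 8 granulocyte markers also differed at 0 h, at 36.93 in BALB/c and 41.42 in C57BL/6 cells. Ngp had 4.44 against 6.18, while Cebpe went the other way, with 5.61 against 5.11. With 5 ng/ml LPS the sums at 1, 2, 4, 8 and 24 h were 35.92, 35.86, 36.09, 34.88 and 35.81 in BALB/c cells. In C57BL/6 cells the sums of these markers were 40.98, 41.53, 41.55, 40.15 and 36.81. Their part in the strain differences was not tested.

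Under LPS the order of the strains was the opposite at first. BALB/c cells had the higher levels in 5 of 6 members (5.53% of all genes called, 3.52% upward). At 1 h Usp18 differed by 1.86 ± 0.27 (adjusted p = 2.4e-06), Cmpk2 by 1.78 ± 0.33 (adjusted p = 0.00016), Rsad2 by 1.66 ± 0.41 (adjusted p = 0.0042) and Isg15 by 1.25 ± 0.36 (adjusted p = 0.017), and Isg20 reached 1.24 ± 0.41 (adjusted p = 0.032) at 4 h. At 8 and 24 h no member was called (2.28% and 1.83% of all genes were), and the differences lay between -0.13 and 0.31. For Rsad2 the difference at 24 h was 0.11 ± 0.41 (adjusted p = 0.92), which does not show that the strains were alike.

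The signed change from 0 h under LPS was higher in BALB/c than in C57BL/6 cells in all 6 members (4.68% of all genes called, 3.27% upward). This is a test of the difference between the strains' changes, in which a fall in C57BL/6 cells counts like a rise in BALB/c cells. From 0 h to 1 h the mean of Rsad2 went from 8.7 to 9.59 in BALB/c cells and from 12.22 to 7.92 in C57BL/6 cells. For Rsad2 the difference between the changes was 5.19 ± 0.58 (adjusted p = 3.9e-08) at 1 h and 3.63 ± 0.58 (adjusted p = 5.6e-05) at 24 h. Since it contains the 0 h arrays of both strains, it carries the difference at 0 h. Counted from 1 h in place of 0 h, 0 members were larger and 2 smaller in BALB/c cells (3.77% of all genes called), namely Cmpk2 with -1.79 at 8 h (adjusted p = 0.014) and Usp18 with -1.71 at 8 h (adjusted p = 0.0032). Rsad2 had -1.80 at 8 h and was not called (adjusted p = 0.054). Bst2 kept positive differences from 1 h, of 0.16, 0.70, 0.46 and 0.39 at 2, 4, 8 and 24 h, none of them called. Whether the strains were cultured in parallel is not given in the sources used here, so that strain and culture cannot be told apart.

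**Figure D5:**
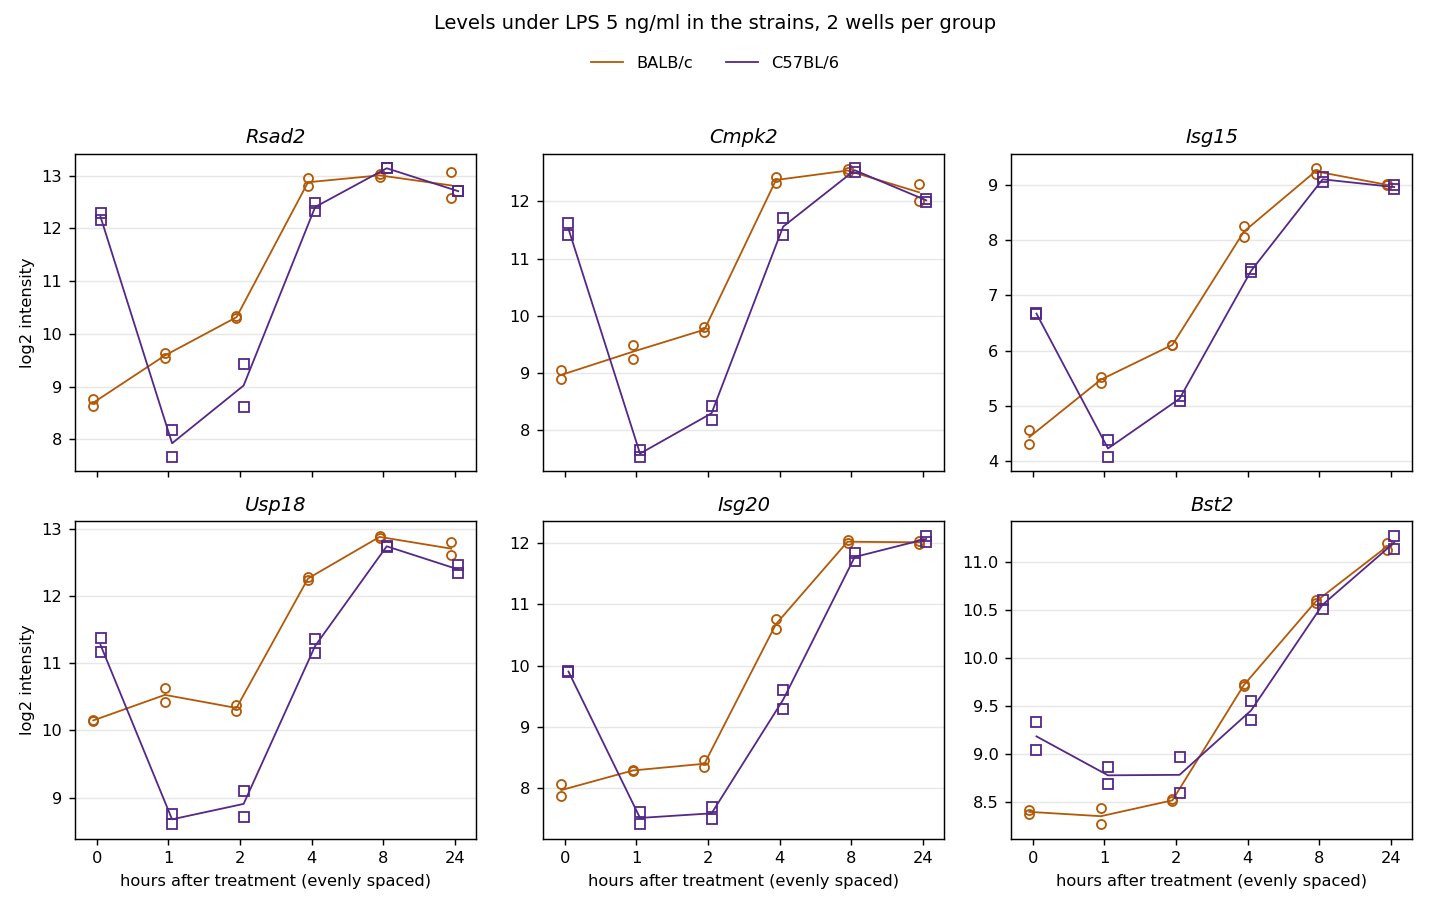
Levels of the 6 genes under LPS at 5 ng/ml in BALB/c and C57BL/6 macrophages, as log2 intensity on the vertical axis, at 0, 1, 2, 4, 8 and 24 h, evenly spaced on the horizontal axis. Open symbols are single wells and lines join the group means. The strains lie far apart at 0 h, with 8.63 and 8.76 for Rsad2 in BALB/c wells and 12.29 and 12.15 in C57BL/6 wells. At 8 h Rsad2 stands at 13.03 and 12.98 in BALB/c wells and at 13.14 and 13.14 in C57BL/6 wells.

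Over all 32 groups the members differed in how far they ranged. The group means of Rsad2 ran from 7.92 to 13.25, those of Cmpk2 from 7.59 to 12.98, those of Isg15 from 4.08 to 9.30, those of Usp18 from 8.67 to 12.97, those of Isg20 from 7.51 to 12.18 and those of Bst2 from 8.35 to 11.38. This is a range of 41.9-fold for Cmpk2 and 8.17-fold for Bst2. IFN-beta at 4 h was the highest group for Rsad2, Cmpk2 and Usp18. LPS at 50 ng/ml in C57BL/6 cells was the highest for Isg15 (8 h), Isg20 (24 h) and Bst2 (24 h). The lowest group of Rsad2, Cmpk2, Usp18 and Isg20 was C57BL/6 cells at 1 h of 5 ng/ml LPS, that of Isg15 was C57BL/6 cells at 2 h of 0.5 ng/ml, and that of Bst2 was BALB/c cells at 1 h of 5 ng/ml. That mean of Isg15, 4.08, lay under 4.19, below which 40% of all probe set values lie, so that the low end of its range is uncertain. In the order of group means, the wells of neighbouring groups overlapped in 19 (Isg15) to 24 (Bst2) of 31 steps, so that most adjacent ranks do not differ beyond the spread of the wells.

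Genes were ranked by how alike their 32 group means were to those of each member. For Rsad2 the highest Pearson correlations over the 32 group means were those of Ifit1 (0.990), Cmpk2 (0.984) and Mx1 (0.965), and for Cmpk2 they were Rsad2 (0.984), Ifit1 (0.976) and Slfn8 (0.967). Isg15 was closest to AW112010 (0.974), Enpp4 (0.970) and Ifih1 (0.964), and Usp18 to Ifit3 (0.979), Xaf1 (0.975) and Slfn5 (0.974). Isg20 was closest to Ddx58 (0.971), Isg15 (0.955) and Ifit3b (0.953), and Bst2 to Cfb (0.960), Acaa1a (0.956) and Abcc5 (0.938). Among the members themselves the correlations ran from 0.673 (Cmpk2 with Bst2) to 0.984 (Rsad2 with Cmpk2). These values describe 32 groups that share arrays, strains and 0 h samples. Rsad2 and Cmpk2 are neighbours on chromosome 12, 12665 bases apart, whereas the measured gene on the other side of Rsad2, Rnf144a, was not called under IFN-beta (-0.42) or LPS at 5 ng/ml in BALB/c cells (-0.91).

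The machinery around the members was followed through lists of genes with known roles. Of 4 measured genes that attach ISG15 to proteins, 3 rose under IFN-beta, 2 under IFN-gamma and 4 under LPS in BALB/c cells, where 4.05%, 3.10% and 7.44% of all genes rose. At each LPS dose in C57BL/6 cells 3 rose, where 9.11%, 14.3% and 15.0% of all genes were called in either direction with 0.5, 5 and 50 ng/ml. Herc6, the ISG15 ligase of mice, rose by 2.93 ± 0.23 at 8 h of IFN-beta, by 2.05 at 4 h of IFN-gamma and by 3.20 at 24 h of LPS in BALB/c cells. Uba7, the activating enzyme, rose by 1.93 and the conjugating enzyme Ube2l6 by 1.30 under IFN-beta, and Trim25, another ligase, had 0.96 under IFN-beta and was called under LPS in BALB/c cells with 1.15. Of 7 other ubiquitin-like modifiers and proteases that were measured, only Usp25 was called. Usp25 was called under IFN-beta and LPS in BALB/c cells and at 5 and 50 ng/ml in C57BL/6 cells. In these courses 7.92%, 17.2%, 14.3% and 15.0% of all genes were called in either direction. All 5 measured genes whose products are known to bind or act with viperin (Traf6, Fdps, Vapa, Ciao1 and Vapb) were not called in any course. The share of all genes called in a course ran from 5.37% (IFN-gamma) to 17.2%, so that few or no calls in such short lists are not particular to them.

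Genes of pyrimidine nucleotide supply, the pathway that provides CTP to viperin and substrate to Cmpk2, were counted in each direction. Among 11 measured, 1 rose and 4 fell under IFN-beta, where 3.87% of all genes fell. Under IFN-gamma 1 rose and 1 fell (2.27% of all genes fell), and under LPS in BALB/c cells 1 rose and 4 fell (9.72% of all genes fell). At 0.5, 5 and 50 ng/ml LPS in C57BL/6 cells 0, 1 and 1 rose while 3, 4 and 4 fell, and 5.09%, 8.41% and 8.73% of all genes fell. Uck2, a kinase that salvages uridine and cytidine, fell by 2.42 under IFN-beta, and Ctps, which makes CTP from UTP, fell by 1.35. Umps and Cad, both enzymes of the synthesis of UMP, fell by 1.24 and 1.09. The member of the list that rose was Samhd1, which breaks down deoxynucleotides, with 1.70 at 4 h of IFN-beta and 1.52 at 8 h of IFN-gamma.

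Of 26 other measured antiviral effectors, 25 rose under IFN-beta, 22 under IFN-gamma and 25 under LPS in BALB/c cells, and none fell. Of all genes, 4.05%, 3.10% and 7.44% rose in these courses. Their largest changes under IFN-beta were those of Ifi205 (6.01), Ifit1 (5.48) and Mx1 (5.41), and Ifitm3 was the one not called (0.64). The median of this list under IFN-beta was 0.88, 1.32, 2.35, 2.11 and 1.33 at 1, 2, 4, 8 and 24 h, below that of the 6 members at each time. At 0.5, 5 and 50 ng/ml LPS in C57BL/6 cells 15, 18 and 19 of the 26 effectors rose while 8, 7 and 6 fell. In these courses 9.11%, 14.3% and 15.0% of all genes were called in either direction. Untreated BALB/c cells were lower than untreated C57BL/6 cells in 10 of the 26 and higher in none, where 1.26% of all genes were lower. The higher level in untreated C57BL/6 cells was therefore not limited to the 6 members.

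Of 15 measured genes of interferon signalling, 7 rose under IFN-beta, 6 under IFN-gamma, and 8 rose and 1 fell under LPS in BALB/c cells. Of all genes, 4.05%, 3.10% and 7.44% rose in these courses, and 9.72% fell under LPS. The feedback inhibitor Socs3 rose by 4.38 under IFN-beta and by 5.23 at 1 h of IFN-gamma, and the transcription factor Irf1 by 3.40 at 2 h of IFN-beta and by 3.78 at 4 h of IFN-gamma. Stat2 and Irf7, parts of the type I interferon response, fell by 2.27 (2 h) and 2.33 (1 h) with 5 ng/ml LPS in C57BL/6 cells, at the times when 5 of the 6 members were low. Ifnb1, the gene for IFN-beta, was not called under either interferon, rose by 1.02 at 8 h of LPS in BALB/c cells (adjusted p = 0.00096) and by 2.41 at 2 h of 50 ng/ml in C57BL/6 cells (adjusted p = 2.1e-09), had 0.99 at 2 h of 5 ng/ml, and was not called with 0.5 ng/ml. Between untreated strains, Socs3 was lower in BALB/c cells (-3.23) and so was Jak2 (-1.04), while the other 13 signalling genes were not called (2.36% of all genes were).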

How the data were processed

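The authors deposited intensities on a linear scale for 35556 probe sets on each of 64 arrays, processed with Affymetrix Expression Console 1.1 per the submitters' processing notes. The background correction, normalisation and summary method behind these intensities are not given in the sources used here. Intensities ran from 2.49 to 17782, and array medians from 25.6 to 29. They were transformed to log2. The platform annotation names 1 gene for 21218 probe sets, several for 1881 and none for 12457, and the brightest probe set of each of 18820 genes was kept. One limma model (limma 3.58.1 in R 4.3.3) with a mean for each of 32 groups was fitted to all arrays, with 32 residual degrees of freedom. Courses and pairs of courses were tested with F-tests over the times and with moderated tests at each time, adjusted by the Benjamini-Hochberg method. The procedure was tested on simulated data. The members and gene lists were chosen with earlier results of these data known, so that counts over them are descriptions. Genes other than the members were named by rule as the 5 most correlated with a member over the group means, as the nearest measured neighbours, as every gene of a list of up to 6, or as the 3 with the largest change in a longer list; any other list gene was named after its values were seen. Promoter windows came from RefSeq on GRCm38.p6. Replicate numbers only name wells: over 496 pairs of groups, same-numbered wells deviated together with correlations of -0.472 to 0.55 (median 0.00456). The small number of arrays per group limits the precision.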

Additional observations from a re-analysis of the deposited data

Results flagged for a closer look

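The change from 0 h under LPS at 5 ng/ml differed between BALB/c and C57BL/6 macrophages in all 6 members, by a test of the difference itself. BALB/c cells had the higher signed change, by 5.19 at 1 h in Rsad2 (F-test adjusted p = 1.4e-07), 4.33 at 1 h in Cmpk2 (adjusted p = 6.5e-08), 3.49 at 1 h in Isg15 (adjusted p = 2.4e-05), 2.97 at 1 h in Usp18 (adjusted p = 2.1e-06), 3.17 at 4 h in Isg20 (adjusted p = 0.00096) and 1.05 at 4 h in Bst2 (adjusted p = 0.023), all on the log2 scale. Each value contains the 0 h difference between the strains, which was -3.52 for Rsad2 and -0.79 for Bst2. The values at 1 h also contain a fall in C57BL/6 cells. There the means went from 12.22 to 7.92 for Rsad2, 11.52 to 7.59 for Cmpk2, 6.67 to 4.23 for Isg15 and 11.27 to 8.67 for Usp18. Counted from 1 h, 0 members had a larger change in BALB/c cells and 2 a smaller one.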

How the results depend on the processing

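Single values for members were recomputed where an alternative gave one, 3846 values for 126 results. Of these, 3755 kept their side of the threshold, 79 were no longer past it and 12 were newly past it. Among values past the threshold in either computation, 0 changed sign. A change of sign in a value that was past it in neither was not counted. Counting from 1 h gave values for 33 of the results, none of them at 1 h, and the larger set of arrays alone for 123. Counts of members called moved as follows. Measured from 1 h, 6 members rose with 5 ng/ml and 6 with 0.5 ng/ml LPS in C57BL/6 cells, turning the direction, and the strains' responses gave 2 calls, both lower in BALB/c cells. Fitted to only the arrays compared, 50 against 0.5 ng/ml gave 2 calls and 50 against 5 ng/ml gave 0; fewer arrays estimate the spread there. The 50 against 5 ng/ml count was 1 without the 5 arrays that stood apart, 1 without the 2 of them from 1 h of 50 and 0.5 ng/ml (chosen after seeing the data), and 0 to 5 with single wells left out: 0 without the first well of 50 ng/ml or of 5 ng/ml at 1 h, and 5 without the second well of 50 ng/ml. Without a minimum change, 8 pairs of member and course were called between 24 h and 8 h, 4 of them higher and 4 lower. Leaving out single wells gave 5 to 6 calls for IFN-beta against IFN-gamma, 3 to 5 for 5 against 0.5 ng/ml, 4 to 5 for the strains at 0 h, 4 to 5 for the strains under LPS, 5 to 6 for their responses and 4 to 5 between 24 h and 8 h. The 5 genes most like a member changed when only 1 strain was used: of those named over 32 groups, none of the 5 for Bst2 remained in the BALB/c groups and none of the 5 for Isg20 in the C57BL/6 groups. With the replicate number as a block, Rsad2 at 4 h of IFN-beta was 4.55 (adjusted p = 3.1e-11), and no call changed.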
